A study of Mus musculus with 11 samples.

Results

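The giant ubiquitin ligases described here are 8 mouse genes: Huwe1, Herc1, Herc2, Hectd4, Ubr3, Ubr4, Mycbp2 and Birc6. They were chosen by symbol from the 30986 rows of a table of fragment counts per gene. Of the 8, 7 stood under their own symbol, and Hectd4 stood under its older predicted name, Gm15800. Levels were compared between cerebellum, cortex and hippocampus as CPM, counts divided by the library total and scaled to 1000000.

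The fragments are RNA that came down with FMRP, an RNA-binding protein whose loss causes Fragile X syndrome. Tissue from mouse brains of postnatal day 13 was ground, crosslinked with ultraviolet light (254 nm, 3 times 400 mJ), and taken through immunoprecipitation of FMRP before library preparation. The labels give no strain, genotype or sex, and no input RNA, untreated or mock-precipitation library is among the 11 libraries, so a level here is the product of RNA abundance and recovery with FMRP, and these cannot be told apart. In whole tissue, fewer cells of a type and less RNA per cell cannot be told apart either. Cerebellum had 2 libraries, cortex 3 and hippocampus 5, and 1 further library, whose title and tissue label name different regions, was kept out of the comparisons. Hippocampus 1 and 2 did not differ detectably beyond sampling noise and were counted as 1 sample, hippocampus 1+2, which left 9 samples, 7 of them from forebrain (cortex and hippocampus). The sample titles carry a 6-digit code, and samples can be compared within it. Code A covers cerebellum 1, cortex 1 and hippocampus 1+2, code B covers cerebellum 2 and hippocampus 3, and code C covers cortex 2 and 3 and hippocampus 4 and 5.

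Ubiquitin ligases (E3 enzymes) choose the proteins that receive ubiquitin, a small protein tag that sends many of its targets to the proteasome. HECT ligases first take ubiquitin onto a cysteine of their own catalytic domain and then pass it to the target, whereas RING ligases bring the target next to an E2 enzyme that carries the ubiquitin. Huwe1, Herc1, Herc2 and Hectd4 have HECT domains, Ubr3 and Ubr4 belong to the UBR-box family, Mycbp2 is a RING-type ligase of axons and synapses, and Birc6 joins a BIR domain of the apoptosis inhibitors to an E2-type domain. Ubiquitin ligases remodel synapses during development, and long neuronal coding messages are a known class of FMRP-bound RNA.

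The genes lie on 8 chromosomes of the mouse build GRCm38 (mm10), according to GENCODE M21. Huwe1 spans chrX:151800807-151935417 on the plus strand, Herc1 chr9:66350450-66508775 on the plus strand, Herc2 chr7:56050196-56231800 on the plus strand and Hectd4 chr5:121220219-121368577 on the plus strand. Ubr3 spans chr2:69897246-70024013 on the plus strand, Ubr4 chr4:139352609-139489588 on the plus strand, Mycbp2 chr14:103113411-103346814 on the minus strand and Birc6 chr17:74528295-74703356 on the plus strand. The transcript used for each gene has between 39 exons (Ubr3) and 106 exons (Ubr4). Coding sequences ran from 13.1 kb (Huwe1) to 15.5 kb (Ubr4) in 7 of the 8 genes, and that of Ubr3 was 5.68 kb. Among 1664 tested rows with a coding sequence, whose median was 2.97 kb, the 8 genes placed between 12 (Ubr4) and 295 (Ubr3) by coding length. Ubr4 shares exon sequence with Emc1 on the same strand and Herc1 with Fbxl22 on the opposite strand. Those neighbours had 35 and 19 counts in the 9 samples, and fragments of such overlaps cannot be told apart in a table whose use of strand is not given.

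The HECT active site was compared between the 4 HECT members. The 63 coding bases around the codon of the catalytic cysteine, which is in capitals, were taken from GENCODE M21 transcripts. They lie at chrX:151933099-151934311 in Huwe1 (across exons 82 and 83), chr9:66508139-66508201 in Herc1 (exon 78), chr7:56230881-56230943 in Herc2 (exon 93) and chr5:121366474-121366536 in Hectd4 (exon 76), all on the plus strand, and they sit close to the end of the coding sequence.
Huwe1: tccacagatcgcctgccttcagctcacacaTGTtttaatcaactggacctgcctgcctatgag
Herc1: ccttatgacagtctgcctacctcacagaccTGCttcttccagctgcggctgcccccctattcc
Herc2: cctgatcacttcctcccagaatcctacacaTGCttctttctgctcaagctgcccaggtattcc
Hectd4: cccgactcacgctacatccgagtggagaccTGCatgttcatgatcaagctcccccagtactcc
Herc1 and Herc2 shared 41 of the 63 bases, the most of any of the 6 pairs, and Huwe1 and Hectd4 shared 21, the fewest. Bases were compared position by position with no gaps. Part of the identity was set by the search, which required a threonine before the cysteine and a leucine and proline after it. How the genes are related was not tested.

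The second set of sequences shows the letters AGGA and TGGA (together called WGGA), a motif named in crosslinking studies of FMRP. It was searched on the coding strand, with overlapping matches counted, and the window of 60 coding bases with the most matches was kept for each gene. The windows of Huwe1 (chrX:151907015-151907074, exon 53), Herc2 (chr7:56177920-56177979, exon 56), Ubr4 (chr4:139409744-139410089, exons 22 and 23) and Hectd4 (chr5:121253956-121254015, exon 2) are printed with the matches in capitals. They run from the member with the densest window to one of those with the fewest matches.
Huwe1: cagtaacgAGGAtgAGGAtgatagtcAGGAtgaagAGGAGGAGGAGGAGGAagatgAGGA
Herc2: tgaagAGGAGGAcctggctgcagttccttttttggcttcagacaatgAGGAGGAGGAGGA
Ubr4: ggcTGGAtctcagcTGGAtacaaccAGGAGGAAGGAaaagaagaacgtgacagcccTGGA
Hectd4: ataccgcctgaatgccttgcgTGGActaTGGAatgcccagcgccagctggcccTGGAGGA
The Huwe1 window held 9 matches, and 3.06% of the 1664 coding rows had a window with as many. Herc1, Herc2 and Ubr4 reached 6 matches (18.6% of rows), Mycbp2 reached 5 (43.4%), and Hectd4, Ubr3 and Birc6 reached 4 (78.5%). These percentages are not matched for length. The median coding row has 2.97 kb, and a longer coding sequence offers more windows. Over the whole coding sequence the density of WGGA ran from 14.0 per kb in Birc6 to 17.2 per kb in Herc2, against a median of 16.002 per kb and quartiles of 13.6 and 18.7 over all coding rows. All 8 members lay between those quartiles. Their WGGA content per length was thus within the middle of the tested rows, and nothing about binding is read from a match.

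Huwe1 and Hectd4 had the highest levels per length of the 8 genes. Per kb of transcript, the mean over 9 samples was 163.8 ± 77.7 CPM (SD) for Huwe1 and 130.8 ± 65.6 for Hectd4. Herc2 followed at 85.3 ± 38.6 CPM per kb, Mycbp2 at 81.9 ± 38.7, Birc6 at 67.7 ± 26.4, Ubr4 at 66.1 ± 38.5, Ubr3 at 61.5 ± 37.6 and Herc1 at 56.3 ± 35.6. The Birc6 transcript used (14.6 kb) has no sequence outside the coding part, so its level was divided by coding length alone. Its place relative to Ubr4 can depend on that. Huwe1 exceeded Hectd4 in 8 of 9 samples and Hectd4 exceeded Herc2 in 9 of 9. Below them, Herc2 exceeded Mycbp2 in 6 of 9 samples and Birc6 exceeded Ubr4 in 3 of 9, so the lower places of this order were not stable between samples. The difference between neighbours in the order was smaller than the SD of either gene across samples, except that the gap between Hectd4 and Herc2 exceeded the SD of Herc2.

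All 8 genes stood above the median coding row of 34.7 CPM per kb. By this measure they placed between 62 (Huwe1) and 436 (Herc1) of 1694 annotated rows. Of the tested rows, 35 had a coding sequence at least as long as that of Huwe1, and 7 of those 35 were members. The median of the 35 was 37.9 CPM per kb, the range was 3.70 to 163.8, and Huwe1 and Hectd4 held the 2 highest values among them. Ubr3, with the shortest coding sequence, had the seventh highest level per length of the 8 genes.

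**Figure D1:**
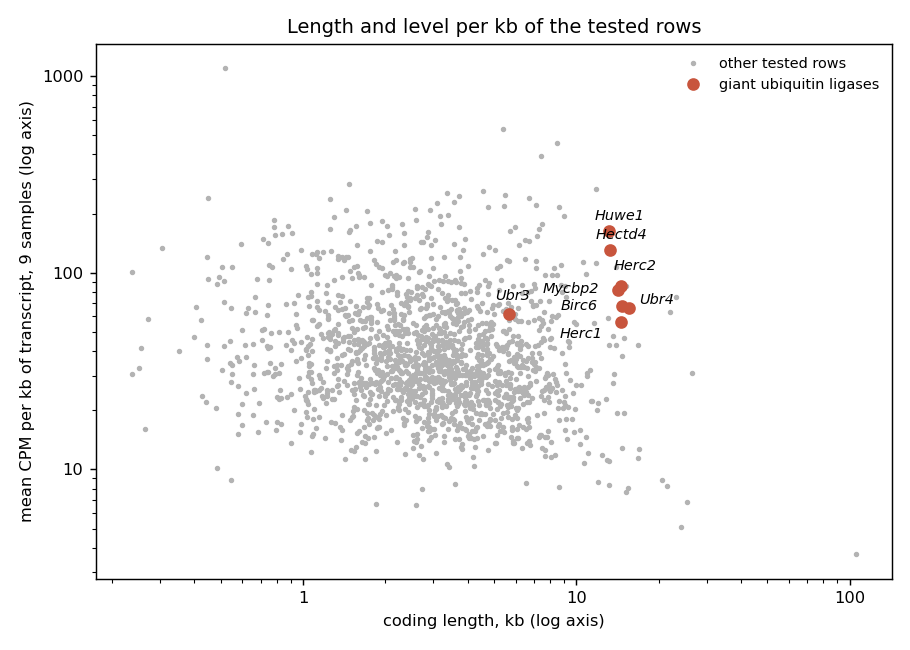
Coding length (x axis, kb, log axis) against mean CPM per kb of transcript over 9 samples (y axis, log axis) for 1664 tested coding rows, each a point, with the 8 giant ubiquitin ligases in red. Of these, 7 lie at 13.1 to 15.5 kb, all 8 lie above the median of 34.7 CPM per kb, and Huwe1 is highest at 163.8.

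Together the 8 genes made up 0.930% and 0.910% of all counts in cerebellum 1 and 2, 1.83%, 1.47% and 0.824% in cortex 1, 2 and 3, and 1.20%, 0.248%, 0.579% and 1.33% in hippocampus 1+2, 3, 4 and 5. The forebrain samples spanned the cerebellar ones on both sides, and the highest sample was 7.36 times the lowest. The 3 forebrain samples with the lowest shares (hippocampus 3, hippocampus 4 and cortex 3) were also those with the most counts on predicted gene names (Gm and a number), 12.2 to 12.6% of their counts, against 3.10 to 7.49% in the other 6 samples. The part of these fragments in the member levels was not tested. Library totals ran from 11898 to 197382 counts, and cortex 3 was the shallowest with 98 member counts. The summed level of 13 cerebellar granule cell markers was 6465 to 7910 CPM in cerebellum and 260.4 to 929 CPM in forebrain, and that of 14 forebrain excitatory neuron markers was 534 to 719 CPM in cerebellum and 1345 to 3529.8 CPM in forebrain. The 9 hippocampal neuron markers summed to 1074 to 2787 CPM in hippocampus and 336 to 681 CPM in cortex, but also to 1104 to 1205 CPM in cerebellum, inside the hippocampal range.

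Huwe1, a HECT ligase whose targets include p53 and Mcl1 and which is linked to X-linked intellectual disability, stood at 2640.02 and 2179 CPM in cerebellum 1 and 2. It reached 4557, 2994 and 1681 CPM in cortex 1, 2 and 3, and 2886, 588, 1367 and 2601 CPM in hippocampus 1+2, 3, 4 and 5. Cortex 1 was highest and hippocampus 3 lowest, and the 3 regions overlapped. Cerebellum had a mean of 2409 ± 326 CPM (SD, n = 2), cortex one of 3077 ± 1440 CPM (n = 3) and hippocampus one of 1860.4 ± 1074 CPM (n = 4).

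Hectd4, a less studied HECT ligase, followed the same samples. It stood at 1341 and 1606 CPM in cerebellum 1 and 2, at 3613, 3101 and 1597 CPM in cortex 1, 2 and 3, and at 2433, 563, 1139 and 2833 CPM in hippocampus 1+2, 3, 4 and 5. Both cerebellar samples lay below 4 of the 7 forebrain samples. Because this gene carries a predicted name in the table, it belongs to the counts on predicted names, where it had the highest count in each of the 11 libraries. It held 9.99% of those counts in cortex 2 and 0.448% in hippocampus 3, and leaving it out gave 12.1 to 12.5% for the 3 samples with the most such counts.

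Herc2, which binds the ubiquitin ligase Ube3a and takes part in the response to DNA breaks, stood at 765 and 1094 CPM in cerebellum 1 and 2. It reached 2246, 1757 and 1513 CPM in cortex 1, 2 and 3, all above both cerebellar samples. In hippocampus 1+2, 3, 4 and 5 it stood at 1358, 358, 866 and 1765 CPM, on both sides of the cerebellar values. Herc1, whose mutation in the tambaleante mouse causes loss of Purkinje cells, was close in both cerebellar samples (702 and 704 CPM) and widely spread elsewhere. Its cortex values were 1497, 1524 and 168 CPM, and its hippocampus values 1005, 230.1, 410.1 and 1439.8 CPM. The cortex 3 value rests on 2 counts, with an exact Poisson 95% interval of 20.4 to 607 CPM that covers counting error only.

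Ubr4, a recognition factor of the N-degron pathway that also binds calmodulin and microtubules in neurons, stood at 1477 and 1135 CPM in cerebellum 1 and 2. Cortex 1, 2 and 3 gave 1855, 1488 and 420.2 CPM, and hippocampus 1+2, 3, 4 and 5 gave 1427, 196, 228 and 1254 CPM. The 3 lowest samples were again hippocampus 3, hippocampus 4 and cortex 3. Ubr3, a UBR-box ligase, was at 545 and 542 CPM in cerebellum, at 1107, 645 and 420.2 CPM in cortex 1, 2 and 3, and at 668, 128, 182 and 232 CPM in hippocampus 1+2, 3, 4 and 5. Of the 4 hippocampus samples, 3 lay below every cortex sample and 1 lay above cortex 2 and 3. Hippocampus 4 and 5 had 4 and 5 Ubr3 counts.

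Mycbp2, which limits axon growth and synapse formation through the kinase Map3k12, stood at 932 and 1008 CPM in cerebellum 1 and 2. It reached 1888, 2062 and 1261 CPM in cortex 1, 2 and 3, all above cerebellum, and 1143, 256, 820.3 and 1858 CPM in hippocampus 1+2, 3, 4 and 5. Birc6, an apoptosis inhibitor that takes ubiquitin from the E1 enzyme Uba6, stood at 901 and 836 CPM in cerebellum, at 1497, 1165 and 1177 CPM in cortex, and at 1113, 162, 775 and 1300.4 CPM in hippocampus 1+2, 3, 4 and 5. Birc6 was above both cerebellar samples in all 3 cortex samples and in 2 of 4 hippocampus samples.

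**Figure D2:**
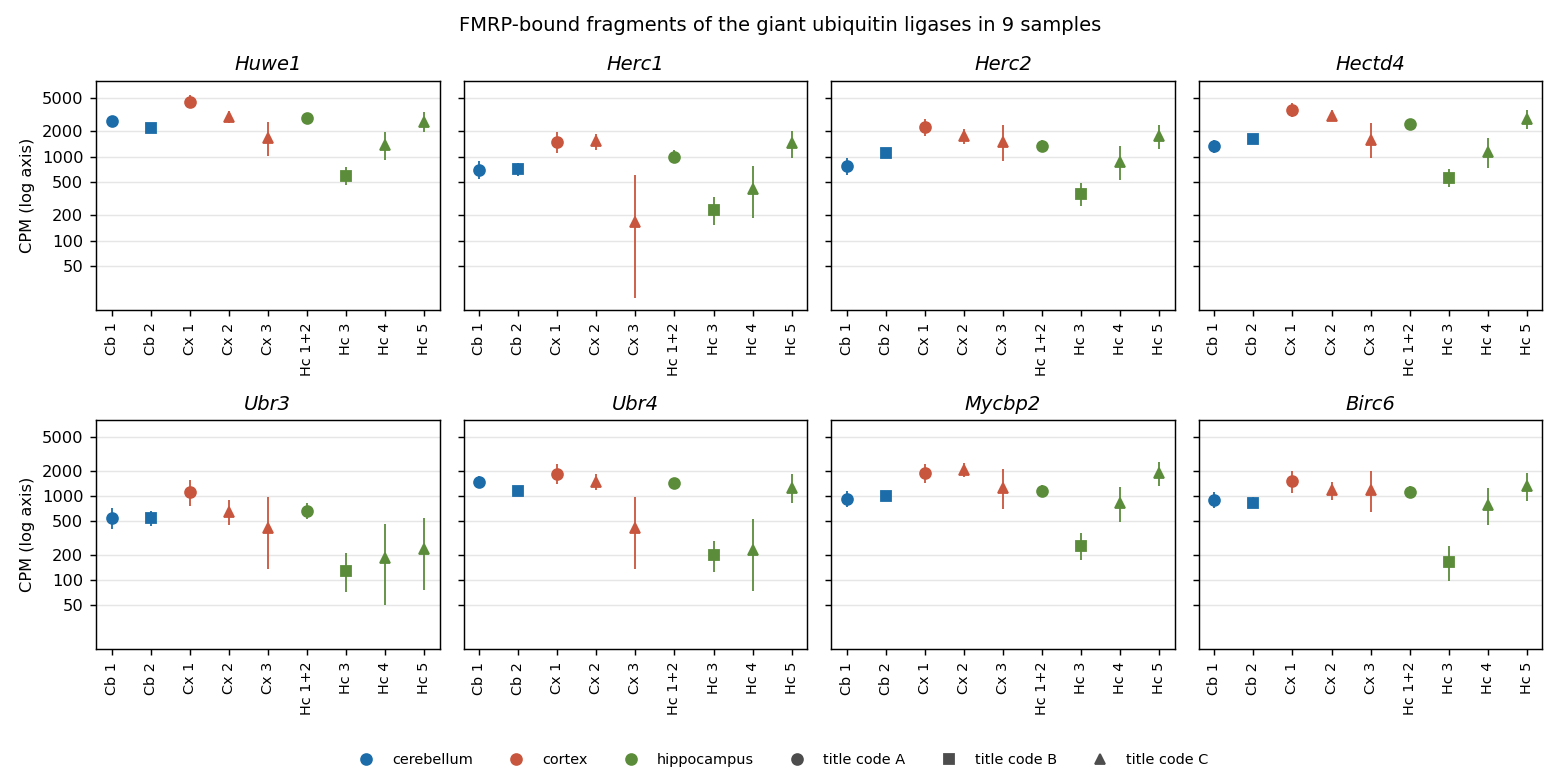
CPM (y axis, log axis) of each giant ubiquitin ligase in 9 samples (x axis; Cb cerebellum, Cx cortex, Hc hippocampus), with exact Poisson 95% intervals for counting error, coloured by region and shaped by the code in the sample title (A, B or C). Hippocampus 3 is the lowest sample for 7 of the 8 genes, and the cerebellar samples lie inside the forebrain range for every gene.

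None of the 8 genes separated cerebellum from forebrain. In no member did the CPM of the 2 cerebellar and 7 forebrain samples fail to overlap, whereas 13.6% of 1720 tested rows did not overlap. The quasi-likelihood test of edgeR, with the title code as a block, called 0 of 8 members at a Benjamini-Hochberg adjusted p under 0.05, while it called 132 of the 1720 rows (7.67%). At an unadjusted p under 0.05 it gave 0 of 8 members against 18% of rows, and DESeq2 called 0 of 8 members against 5.06% of rows. The log2 fold change of cerebellum over forebrain was positive in 6 members and negative in 2, with a median of 0.14, against 0.00 over all tested rows. These signs rest on the block: without it 3 members were positive, the median was -0.18, and Herc1 (-0.24), Mycbp2 (-0.31) and Birc6 (-0.12) were negative. Ubr4 had the highest value, 0.71 (SE 0.54, edgeR adjusted p = 0.598), and Herc2 the lowest, -0.23 (SE 0.57, adjusted p = 0.933), with Hectd4 beside it at -0.23 (SE 0.62, adjusted p = 0.936). The intervals were wide. That of Huwe1 ran from -0.90 to 1.54 on the log2 scale, so differences in both directions are within the error.

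Codes A and B gave opposite directions for cerebellum, on values scaled by the TMM factors of the samples. In code A, cerebellum 1 lay below the mean of cortex 1 and hippocampus 1+2 in 7 of 8 members, from -1.03 (Herc2) and -0.97 (Hectd4) to -0.29 (Huwe1), and Ubr4 was at 0.04. The median over members was -0.49, against -0.01 over all rows compared, of which 49.6% were higher in cerebellum 1. In code B, cerebellum 2 lay above hippocampus 3 in 8 of 8 members, from 0.90 (Hectd4) to 1.92 (Ubr4), with a median of 1.33 against 0.00. Of all rows compared there, 50.1% were higher in cerebellum 2. Ubr4 had the highest and Herc2 or Hectd4 the lowest ratio in both codes. On library totals alone the medians were -0.70 in code A and 1.93 in code B, against -0.19 and 0.61 over all rows compared, and Ubr4 in code A was then at -0.15.

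Hippocampus 3 alone is the forebrain side of code B, and it is 1 of the 3 samples rich in predicted names. Codes A and B hold 1 cerebellar sample each, and code C has no cerebellar sample. In the blocked fit, leaving out 1 sample of code A or B can thus leave the comparison to the other. Without hippocampus 3, cerebellum 2 is alone in its block, cerebellum 1 carries the comparison, and the median of the members (-0.46) repeats that of code A. Without cerebellum 1 the comparison rests on cerebellum 2 against hippocampus 3, and the median was 1.28. For the cortex side, that fit takes the difference between cortex and hippocampus from codes A and C. Leaving out cortex 3, hippocampus 3 and hippocampus 4, a setting chosen after seeing the data, likewise leaves cerebellum 1 as the only cerebellar sample in the blocked comparison, and the median was -0.50. There edgeR called Hectd4 (log2 -0.97, SE 0.27, adjusted p = 0.00492) and Herc2 (log2 -1.01, SE 0.30, adjusted p = 0.0103) lower in cerebellum, where 4.22% of 1989 rows were called lower. These values restate the code A ratios, the fit had 1 residual degree of freedom, and the lone cerebellar sample is assumed to vary like the others, so the calls are of that sample and not of the region. With no block on the title code, where both cerebellar samples count, it called neither (adjusted p = 0.058 for Hectd4 and 0.154 for Herc2).

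**Figure D3:**
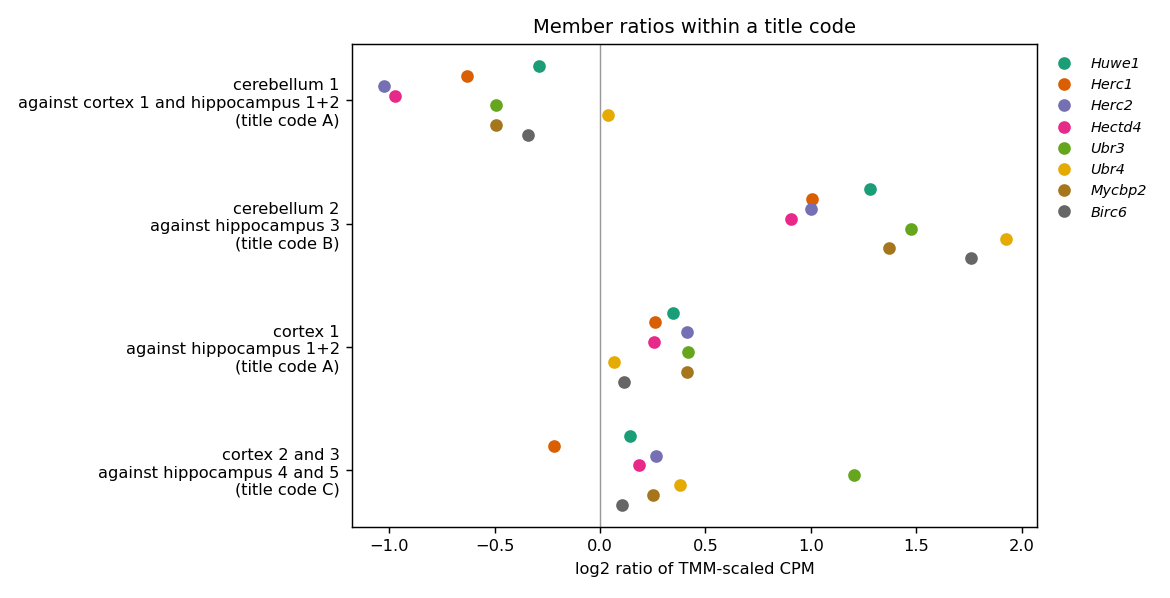
Log2 ratio of TMM-scaled CPM (x axis) for the 8 giant ubiquitin ligases, each a coloured point, in the 4 comparisons that can be made within a title code (y axis). Cerebellum 1 lies below its forebrain samples in 7 of 8 genes, cerebellum 2 lies above hippocampus 3 in 8 of 8, and cortex lies above hippocampus in 8 of 8 and 7 of 8. Of all rows compared, 49.6%, 50.1%, 47.9% and 44.4% were higher in the first-named samples, in the same order.

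Cortex against hippocampus gave fold changes of the same sign in every member, and none passed the test. The 8 genes were read from the same samples, so their signs are not 8 separate observations. The log2 fold changes of cortex over hippocampus ran from 0.25 (Herc1) to 0.99 (Ubr3), with a median of 0.42, against -0.04 over all tested rows. With 1 sample left out, the member median ran from 0.20 (without cerebellum 1) to 0.70 (without hippocampus 5). It was 0.25 without hippocampus 3, and 0.25 without cortex 3, hippocampus 3 and hippocampus 4, the samples rich in predicted names. The edgeR test called 0 of 8 members and 0 of 1720 rows (0%), and 1 of 8 members and 68 rows (3.95%) had an unadjusted p under 0.05. That member was Ubr3, at 0.99 on the log2 scale with an SE of 0.47, an interval of 0.07 to 1.91, an unadjusted edgeR p of 0.0351 and an adjusted p of 0.999. DESeq2 called 0 of 8 members and 1 row (0.0581%). No member's CPM separated the 3 cortex from the 4 hippocampus samples, against 3.9% of rows.

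Within title codes, cortex 1 exceeded hippocampus 1+2 in 8 of 8 members on the TMM scale, and in 47.9% of all rows compared. The values ran from 0.07 (Ubr4) to 0.42 (Ubr3), with a median of 0.30 against -0.04 over all rows compared. In code C, cortex 2 and 3 exceeded hippocampus 4 and 5 in 7 of 8 members and in 44.4% of all rows compared, with a median of 0.22 against -0.11. Herc1 was the exception at -0.22, and Ubr3 was highest at 1.20. Mean levels were higher in cortex than in hippocampus for all 8 genes, but the SD within each region was large. Hectd4, for example, had 2770 ± 1048 CPM in cortex (n = 3) and 1742 ± 1068 in hippocampus (n = 4).

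**Figure D4:**
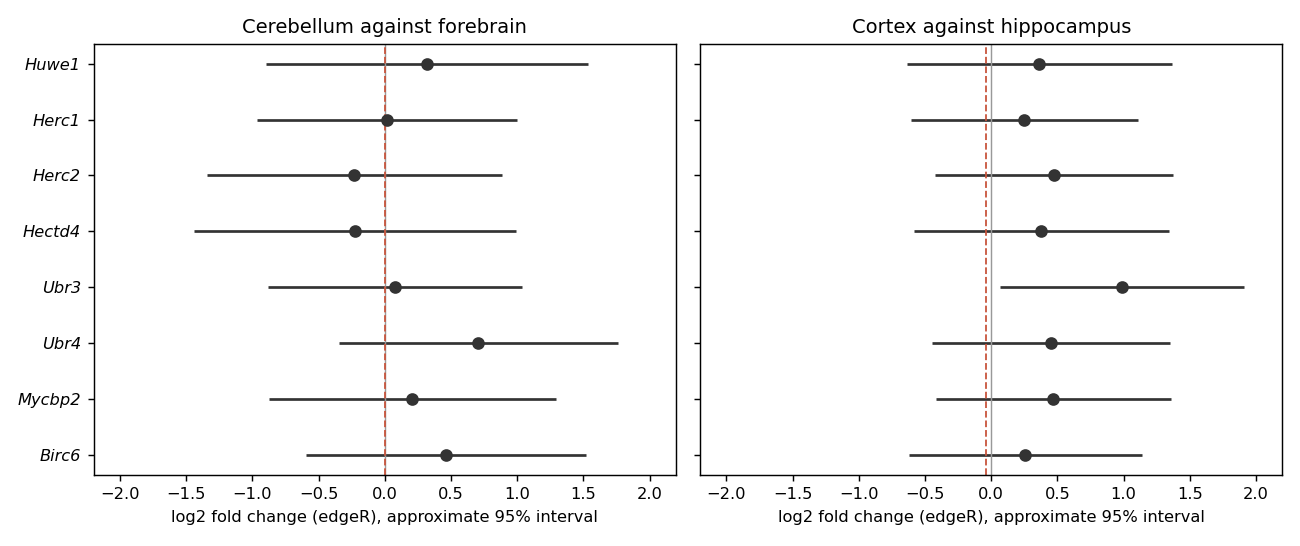
Log2 fold change from edgeR (x axis) with approximate 95% intervals for the 8 giant ubiquitin ligases (y axis), for cerebellum over forebrain and for cortex over hippocampus; the dashed line is the median of all 1720 tested rows. All intervals include 0 except that of Ubr3 for cortex over hippocampus (0.07 to 1.91), whose adjusted p was 0.999.

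Shares among the 8 genes do not depend on the library total. Huwe1 held 19.6 to 28.4% of the member counts over the 9 samples, while its CPM differed 7.75-fold between the highest and lowest sample. Ubr4 held 15.9% of them in cerebellum 1 (Wilson 95% interval 13.6 to 18.4) and 12.5% in cerebellum 2 (11.02 to 14.1). In forebrain it held 10.2%, 10.1% and 5.10% in cortex 1, 2 and 3, and 11.9%, 7.90%, 3.94% and 9.44% in hippocampus 1+2, 3, 4 and 5. Both cerebellar samples were thus above all 7 forebrain samples, but the interval of cerebellum 2 overlapped those of 6 of the 7, all except hippocampus 4, and that of cerebellum 1 overlapped 0 of 7.

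Hectd4 showed the opposite order. It held 14.4% of the member counts in cerebellum 1 (12.3 to 16.9) and 17.6% in cerebellum 2 (15.9 to 19.5), and 19.8%, 21.05% and 19.4% in cortex 1, 2 and 3. In hippocampus 1+2, 3, 4 and 5 it held 20.2%, 22.7%, 19.7% and 21.3%. The interval of cerebellum 2 overlapped those of 7 of 7 forebrain samples, and that of cerebellum 1 overlapped those of cortex 1, cortex 3 and hippocampus 4. By their point values, these 2 of 8 members did not overlap between cerebellum and forebrain in their share, and of all tested rows, 9.36% did not overlap when divided by the same member counts (5.12% higher and 4.24% lower in cerebellum). Because shares sum to a whole, a higher Ubr4 share lowers the others. No member's share separated cortex from hippocampus, where 8.43% of rows did.

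**Figure D5:**
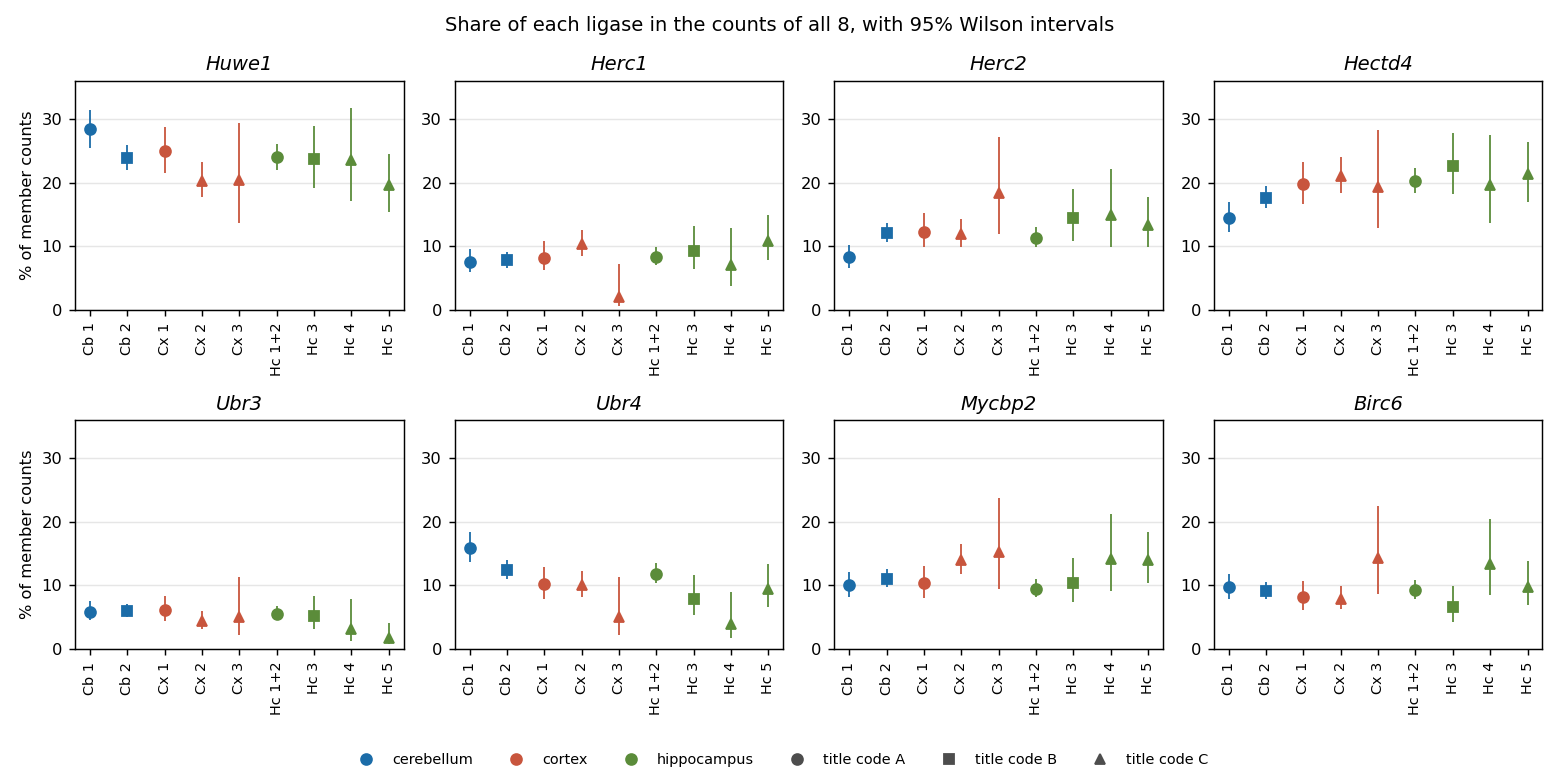
Share of each giant ubiquitin ligase in the summed counts of all 8 (y axis, percent) in 9 samples (x axis; Cb cerebellum, Cx cortex, Hc hippocampus), with Wilson 95% intervals. The Ubr4 shares of both cerebellar samples (15.9% and 12.5%) lie above those of all forebrain samples, and the Hectd4 shares (14.4% and 17.6%) lie below.

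Other tested genes of the ubiquitin-system lists had lower mean levels than every member except Ubr3, and none was called in either comparison. Over all tested rows, 7.67% were called for cerebellum against forebrain and 0% for cortex against hippocampus. With few tested rows per list, 0 calls do not show that a list differs from other rows. Of 23 other HECT ligases, 12 passed the filter on low counts and 0 were called. The highest of them were Arel1 and Nedd4. In cerebellum, cortex and hippocampus the means of Arel1 were 625.2 ± 168, 749.6 ± 431 and 437 ± 252 CPM. Nedd4, which acts on membrane proteins, had means of 679.9 ± 1.46, 597 ± 255 and 462 ± 317 CPM in the same order. Among 9 other UBR and N-degron genes, 2 were tested (Ubr1 and Fbxo11) and 0 called, and of 21 other large RING ligases 11 were tested and 0 called. None of 4 other BIR genes passed the filter.

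The E1 enzyme Uba1, which starts the ubiquitin cascade, was the 1 tested of 9 E1 genes. Its log2 fold change was -0.44 (SE 0.52, edgeR adjusted p = 0.792) for cerebellum over forebrain. Of 34 E2 genes 3 were tested, of 15 cullin ligase genes 3, and of 37 genes of the proteasome and its activators 2 (Psme4 and Psmd1), with 0 called in each. Of 16 known partners and targets of the members, 5 were tested and 0 called. For Map3k12, the kinase that Mycbp2 acts on, the blocked fit gave a log2 fold change of 0.71 (SE 0.67, edgeR adjusted p = 0.708). Its mean levels, which do not use the block, were close: 147.1 ± 29.0 CPM (cerebellum), 138.6 ± 94.8 (cortex) and 140.8 ± 63.9 (hippocampus). The value of 0.71 is thus not a difference seen in the mean levels. Ube3a, the partner of Herc2, had a log2 fold change of -0.51 in that fit (SE 0.62, adjusted p = 0.796). In the same fit 5 of 5 tested granule cell markers were called higher in cerebellum and 5 of 7 tested forebrain excitatory neuron markers lower.

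Rows outside the members were ranked by how near their pattern over 9 samples was to the mean member pattern. Likeness was the root mean square difference of centred log2 CPM on the TMM scale, over 167 rows outside the members with a mean at least that of the lowest member. The nearest were Trrap at 0.22, a large cofactor of histone acetylation, Bsn (Bassoon) at 0.24, a presynaptic scaffold, Cyfip2 at 0.25, a partner of FMRP and of the WAVE complex, Usp9x at 0.26, a deubiquitinating enzyme, and Kif1a at 0.27, a motor of synaptic vesicle precursors. The median was 0.57 over 175 rows, which are these rows and the 8 members together. Of the members themselves, which enter the mean, Huwe1 (0.14) and Hectd4 (0.20) were nearest, and Herc1 (0.59) and Ubr4 (0.52) farthest.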

How the data were processed

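The deposited table holds counts of FMRP-bound fragments per gene symbol, whole numbers used as the authors deposited them. The submitters' processing notes name mm10, Bowtie 0.12.7 and Picard. For the counting program, annotation, use of strand and treatment of duplicates, the sources used here give nothing. The table has 30986 rows in 11 libraries of 11898 to 197382 counts, and 0 sample columns were left unused. At those totals 10 counts are 840.5 and 50.7 CPM. Intervals cover counting error only, because amplified fragments are not independent molecules. Whether libraries of a region come from different animals is not in the labels, and p-values then measure only the spread between these samples, which may be technical.

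CPM were computed from library totals. The test was edgeR 4.0.16 (R 4.3.3; TMM, filterByExpr by region, quasi-likelihood, Benjamini-Hochberg adjusted p under 0.05) on 9 samples, with the 6-digit title code, whose meaning the labels do not give, as a block. It left 1720 rows, among them all 8 members, and was checked on simulated counts. Intervals of fold changes are normal 95% intervals, with the SE taken from the test statistic. Hippocampus 1 and 2 were summed because their counts agreed within sampling noise: chi-square divided by its degrees of freedom was 1.03, and 1.51 to 22.1 for other pairs of a region. Alternatives were DESeq2 1.42.0, library totals, no filter, no block, 10 libraries, the library of conflicting labels as cortex, and leaving samples out. Positions and sequences are from GENCODE M21, matched for 1694 tested rows.

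The members and lists were chosen with earlier results of these data known. Genes named were all members, per ubiquitin-system list any called row and otherwise the 2 tested rows of highest mean CPM (other genes of a list named in the text, such as Map3k12 and Ube3a, were picked for their link to a member after their values were seen), and the 5 rows nearest to the mean member pattern. Some rows that this rule names are not reported here.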

Additional observations from a re-analysis of the deposited data

Results flagged for a closer look

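Huwe1 held 19.6% of the member counts in hippocampus 5, outlying below the other 3 hippocampus samples, which held 23.6 to 24.0%. It was 1 outlying sample among 17 groups of 4 tested, and chance gives about 1 in 20. Its Wilson 95% interval, 15.4 to 24.6%, covers the values of the other samples.

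The library of conflicting labels, which entered no comparison, held counts of all 8 members. The levels were 1944 CPM for Huwe1, 2307 CPM for Hectd4, 1318 CPM for Birc6 and 1285 CPM for Mycbp2. Herc2 stood at 1219 CPM and Ubr4 at 494 CPM, and Herc1 and Ubr3 each had 11 counts, or 362.5 CPM. Hectd4 was thus the highest in CPM, as in cortex 2 and hippocampus 5. The 8 members made up 0.929% of the counts of this library, and its share on predicted names was 9.88%.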

How the results depend on the processing

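Deviations from the region mean had a median correlation across rows of 0.13 for samples with the same title code (8 pairs, -0.07 to 0.48). For 18 pairs of different codes it was -0.05. The deviations of the 2 cerebellar samples are mirror images: with cortex 1, cerebellum 1 gave 0.15 and cerebellum 2 gave -0.15. The pairs are thus not independent, and these medians cannot decide whether the codes pair the samples. Without the block on the title code, 156 rows were called for cerebellum against forebrain and 0 members, and Herc1 (-0.24), Mycbp2 (-0.31) and Birc6 (-0.12) turned negative. Called rows for this comparison were 54 on library totals (37 higher and 17 lower, against 67 and 65), 87 with DESeq2, 1 with no filter, and 215 with the block or 253 without it when cortex 3, hippocampus 3 and hippocampus 4 were left out. They ran from 2 to 176 when 1 sample was left out, with 2 without cerebellum 1, 17 without cerebellum 2, 15 without cortex 1 and 81 without hippocampus 1+2, and the number of called members was 0 to 0. Library totals moved the median of all rows to 0.12 for cerebellum against forebrain and to 0.24 for cortex against hippocampus. Called rows for cortex against hippocampus were 1 with DESeq2, with 10 libraries, without hippocampus 3 and with the library of conflicting labels (with or without the block), 3 without the 3 samples named, and 0 to 1 with 1 sample left out.

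Called members for cerebellum against forebrain were 2 without cortex 3, hippocampus 3 and hippocampus 4 (Herc2 -1.01, Hectd4 -0.97) and 0 in every other setting run. In that blocked fit cerebellum 2 is alone in its title code, so both calls come from cerebellum 1 alone. Without cerebellum 2 or hippocampus 3 the comparison likewise rests on cerebellum 1. Without cerebellum 1 it rests on cerebellum 2 against hippocampus 3, with the cortex side taken through codes A and C. With cortex 3, hippocampus 3 and hippocampus 4 left out, Huwe1 (-0.29), Herc1 (-0.63), Ubr3 (-0.52), Mycbp2 (-0.48) and Birc6 (-0.34) turned negative. With no block as well they were -0.20, -0.71, -0.10, -0.57 and -0.31. With no filter Herc2 (0.19) and Hectd4 (0.17) turned positive. Herc1 was -0.016 with 10 libraries, and with the library of conflicting labels -0.041, or -0.16 with no block. That last setting gave -0.34 for Mycbp2 and -0.22 for Birc6. With 1 sample left out, log2 fold changes of cerebellum over forebrain ran from -0.25 to 1.35 (Huwe1), -0.59 to 1.12 (Herc1), -0.98 to 1.04 (Herc2), -0.93 to 0.97 (Hectd4), -0.48 to 1.21 (Ubr3), -0.44 to 1.39 (Mycbp2) and -0.31 to 1.90 (Birc6). Ubr4 stayed positive, from 0.05 to 1.93. Cortex over hippocampus stayed positive in all settings run except for Herc1, from -0.28 (without cortex 2) to 0.72. The causes were not tested. Of 392 values compared, 334 kept their direction and side of the threshold or moved by less than the spread. On TMM-scaled totals 22 of 24 regional means moved by less than 1 SD. The exceptions were Herc1 and Ubr3 in cerebellum, at 709 and 548 CPM. The shallowest library, with 3 counts at 252.1 CPM, limits what can be seen of Herc1, Ubr3 and Ubr4.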
